A study of Homo sapiens with 27 samples.

Results

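The pancreatic neuroendocrine tumour line QGP-1 was compared after transfection with MAML3 lacking its first exon (dEx1) and after transfection with the empty plasmid (vector), across all genes. The comparison holds 6 of the 27 libraries of the study, the 3 labelled QGP-1 dEx1 and the 3 labelled QGP-1 vector, chosen by their labels. The study transfected QGP-1, the pancreatic line BON-1 and the neuroblastoma line SK-N-SH with vector, full-length MAML3 (FL) or dEx1, in 3 biological replicates each. The constructs were MAML3 cDNA in the plasmid pCMV6-AC, with or without exon 1, and each protein carried V5 at its carboxyl terminus. The vector libraries received pCMV6-AC without MAML3, so all groups went through the same Lipofectamine 3000 transfection. RNA was harvested on day 3, and the TruSeq mRNA kit was used to build libraries. The transfections were transient and QGP-1 is a single line, so each value averages over transfected and untransfected cells.

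MAML3 belongs to the Mastermind-like family of nuclear coactivators. In Notch signalling the cleaved receptor enters the nucleus and binds the DNA-binding protein RBPJ, and a Mastermind protein then joins both and brings in histone acetyltransferases such as EP300 and CREBBP. The amino end of Mastermind proteins makes the contact with the Notch and RBPJ pair, and MAML3 is also known from gene fusions in neuroendocrine tumours that keep its later part.

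The sequences that set dEx1 apart from FL are at the start of the MAML3 coding sequence, and 3 stretches of 60 bases show what was removed and what remains. MAML3 lies at chr4:140637907-141075338 on the minus strand of GRCh37 and has 5 exons. Exon 1 holds 468 of its 3414 coding bases, which is 156 codons or 13.7%. The start codon is in capitals.
Exon 1, start of the coding sequence, chr4:141074422-141074481: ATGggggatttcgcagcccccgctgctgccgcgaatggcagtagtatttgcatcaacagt
Exon 1, last coding bases, chr4:141074014-141074073: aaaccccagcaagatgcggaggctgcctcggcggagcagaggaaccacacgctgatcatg
Exon 2, first coding bases, chr4:140812062-140812121: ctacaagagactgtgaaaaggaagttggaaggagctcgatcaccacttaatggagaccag
The first ATG of exon 2 in the reading frame is codon 200 of the full frame. The start codon of the dEx1 construct is not given in the sources used here.

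MAML3 was present at 78.4, 41.3 and 100.5 CPM (counts per gene scaled to the library total, after TMM scaling) in the vector libraries 1 to 3 and at 2728, 5894 and 5245 CPM in the dEx1 libraries 1 to 3. The FL libraries held 2421, 9001 and 6233 CPM, and the dEx1 and FL ranges overlapped. Its log2 fold change with dEx1 against vector was 5.98 (SE 0.62, adjusted p = 0.0355 by edgeR's quasi-likelihood test). Every dEx1 library was far above every vector library, as the labels say. Counts are per gene, so plasmid and chromosomal transcripts, and transcripts with and without exon 1, cannot be told apart. Adjusted p was 0.0520 with the replicate number as a block and ran from 0.0181 to 0.225 when any 1 of the 9 QGP-1 libraries was left out, passing the threshold only without FL library 1.

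Beyond MAML3, few genes separated dEx1 from vector beyond the spread between libraries. Of 14522 genes tested, 3 passed an adjusted p of 0.05 (0.0207%), MAML3, CHTF8 and ADIPOR2, all higher with dEx1. None was lower by edgeR's test. At an unadjusted p under 0.05 there were 527 genes (3.63%), 203 lower (1.40%) and 324 higher (2.23%). DESeq2 called 53 genes, 40 higher and 13 lower. All 3 dEx1 libraries lay above all 3 vector libraries in 740 genes (5.10%) and below them in 573 (3.95%). In this fit, which had no further terms, the share at an unadjusted p under 0.05 was no higher than that threshold itself. With the replicate number as a block that share was 7.57%. Separation of 3 libraries from 3 arises in many genes without any difference between groups, so it is given as a description.

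**Figure D1:**
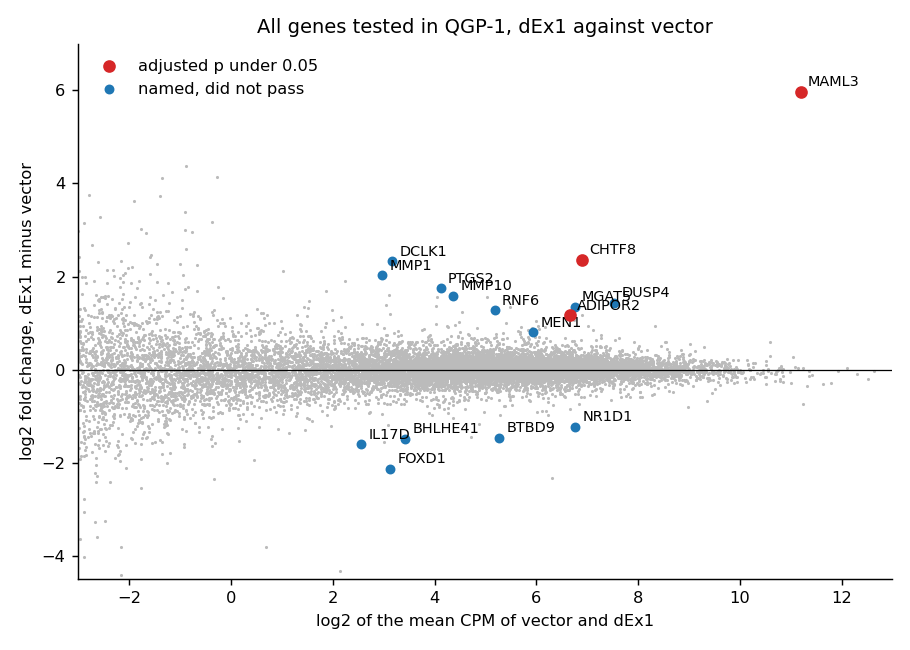
Log2 fold change of dEx1 against vector (vertical axis) for the genes tested in QGP-1 against the log2 of their mean CPM (horizontal axis). Red points are the 3 genes with an adjusted p under 0.05, blue points are named genes that did not pass, and 558 genes of very low level or beyond the axis limits are not drawn.

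CHTF8, a subunit of the clamp loader that places PCNA on DNA during sister chromatid cohesion, rose about 5.14-fold. Its level was 39.6, 33.2 and 43.7 CPM in the vector libraries, 45.3, 65.2 and 52.4 CPM with FL and 215.0, 210.7 and 172.7 CPM with dEx1. The log2 fold change was 2.36 (SE 0.18, adjusted p = 0.0068). The 3 dEx1 libraries were all above the other 6, and the FL libraries were all above the vector libraries but far below dEx1. Against FL the log2 difference was 1.88 (SE 0.17, adjusted p = 0.0381). The call against vector passed in 14 of 19 alternative settings, and was lost without vector library 1 or 3 or dEx1 library 1 or 2 (adjusted p 0.0503 to 0.0646) and in the fit of all 27 libraries (adjusted p = 0.388).

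The level of CHTF8 also spread widely between libraries of 1 group in the other lines. In BON-1 the vector libraries held 153.2, 28.9 and 46.6 CPM and the dEx1 libraries 139.0, 128.3 and 36.1 CPM. In SK-N-SH the vector libraries held 25.2, 96.6 and 25.3 CPM, and the dEx1 libraries 31.8, 24.7 and 26.1 CPM. The highest vector library was thus 5.30 times the lowest in BON-1 and 3.84 times in SK-N-SH, whereas in QGP-1 the ratio was 1.32. A ratio over 3 within the vector group was seen in 8.62% of BON-1 genes, 3.17% of SK-N-SH genes and 3.66% of QGP-1 genes with a mean of at least 2 CPM. CHTF8 lies at chr16:69151913-69166491 (GRCh37, minus strand), where the annotation has DERPC on the same strand and HAS3 and UTP4 on the opposite strand. Whether the level of CHTF8 reflects its expression or the assignment of reads to it was not tested. Whether counting used strand is not stated, and DERPC is not listed in the table. UTP4, a ribosome assembly factor, was at 108.3, 81.8 and 76.5 CPM with vector and 93.9, 108.5 and 77.9 CPM with dEx1 (log2 fold change 0.07, SE 0.18), with overlapping groups.

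ADIPOR2, a receptor for the fat-cell hormone adiponectin, rose 2.25-fold. Its level was 56.5, 63.3 and 66.6 CPM with vector, 74.6, 74.1 and 63.4 CPM with FL and 139.2, 151.1 and 129.0 CPM with dEx1. The log2 fold change against vector was 1.17 (SE 0.12, adjusted p = 0.0355). Every dEx1 library was above all vector and FL libraries, and the FL libraries overlapped vector. Against FL the log2 difference was 0.98 (SE 0.12, adjusted p = 0.0554). The call against vector was lost with each of the 9 libraries left out in turn (adjusted p 0.0545 to 0.216), with the replicate block (0.0520) and in the fit of all 27 libraries (0.422). ADIPOR2 lies at chr12:1797740-1897840 (GRCh37, plus strand). Its relative ADIPOR1 was at 195.8, 195.3 and 198.3 CPM with vector and 191.7, 142.9 and 213.5 CPM with dEx1 (log2 fold change -0.10, SE 0.14).

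**Figure D2:**
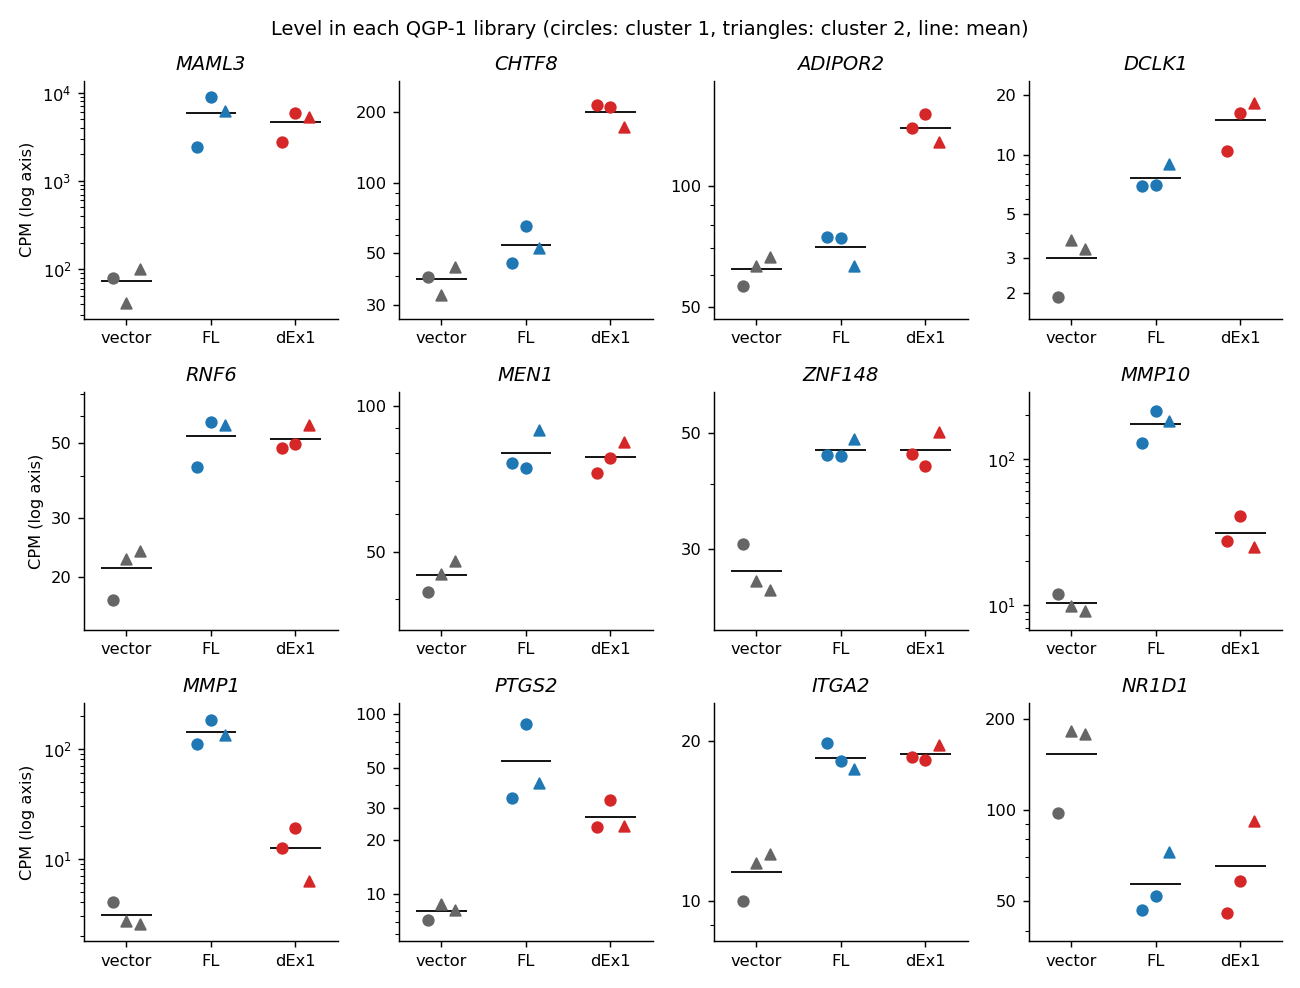
CPM on a log axis of 12 genes in each QGP-1 library by group, with the group mean as a line and the 2 library clusters as circles and triangles. CHTF8 and ADIPOR2 are high in dEx1 alone, RNF6, MEN1, ZNF148 and ITGA2 are at like levels in FL and dEx1, and MMP10 and MMP1 are highest in FL.

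The QGP-1 libraries fell into 2 clusters on the first principal component of log2 CPM, which carried 39.7% of the variance. Cluster 1 held vector 1, FL 1 and 2 and dEx1 1 and 2, and cluster 2 held vector 2 and 3, FL 3 and dEx1 3, so the clusters cut across the groups. Vector therefore had 1 library in cluster 1 and dEx1 had 2. The total count per library was from 79395945 in vector 2 to 92435640 in vector 1, 84030641 to 97298951 with dEx1 and 92977932 to 120254457 with FL, in the units of the deposited table. Of 9 pancreatic neuroendocrine markers, 8 were tested, and their summed level was 4471 to 5005 CPM with vector and 3801 to 4773 CPM with dEx1. NEUROD1, a factor of endocrine cells, was at 0 in all 6 libraries, while CHGA and CHGB, granins of secretory granules, were each in those 6 libraries at no less than 546 CPM. Summed epithelial markers were at 4615 to 5974 CPM with vector and 4561 to 5099 CPM with dEx1, and duct markers, mostly KRT7, at 605.1 to 788.6 and 570.8 to 673.6 CPM, with CFTR at 0. Summed fibroblast markers were at most 11.7 CPM, neuroblastoma markers at most 7.85 CPM, immune markers at most 3.42 CPM, acinar markers at most 2.80 CPM and endothelial markers at most 1.02 CPM in any QGP-1 library. In bulk RNA a change in the share of cells of a kind and a change in RNA per cell cannot be told apart.

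**Figure D3:**
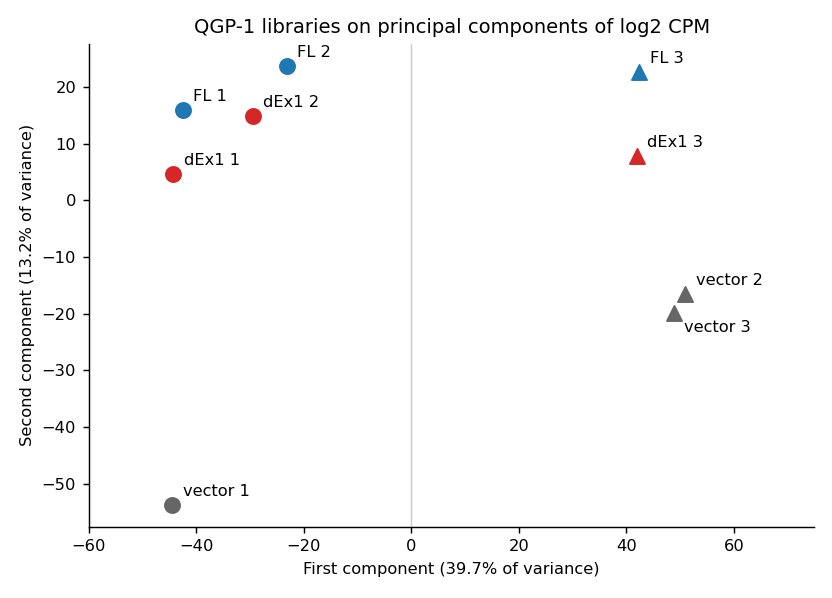
The 9 QGP-1 libraries on the first 2 principal components of log2 CPM, coloured by group, with circles for cluster 1 and triangles for cluster 2. The horizontal axis separates the clusters and not the groups, and the vector libraries lie lowest on the vertical axis, which carries 13.2% of the variance.

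A term for the cluster in the fit raised the genes called to 11 of 14522 (0.0757%) and those at an unadjusted p under 0.05 to 1679. It called 7 higher with dEx1 (0.0482%), CHTF8, DCLK1, MEN1, ADIPOR2, RNF6, MAML3 and HPGD, and 4 lower (0.0275%), DDX39B, CAPZB, NR1D1 and PER1. A replicate block called 3 genes (0.0207%), CHTF8, DCLK1 and RNF6, of which CHTF8 alone was among the 3 called without it, and 1099 genes (7.57%) were at an unadjusted p under 0.05. Both terms were alternatives to the fit without them, and the clusters were known from earlier results of these data.

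**Figure D4:**
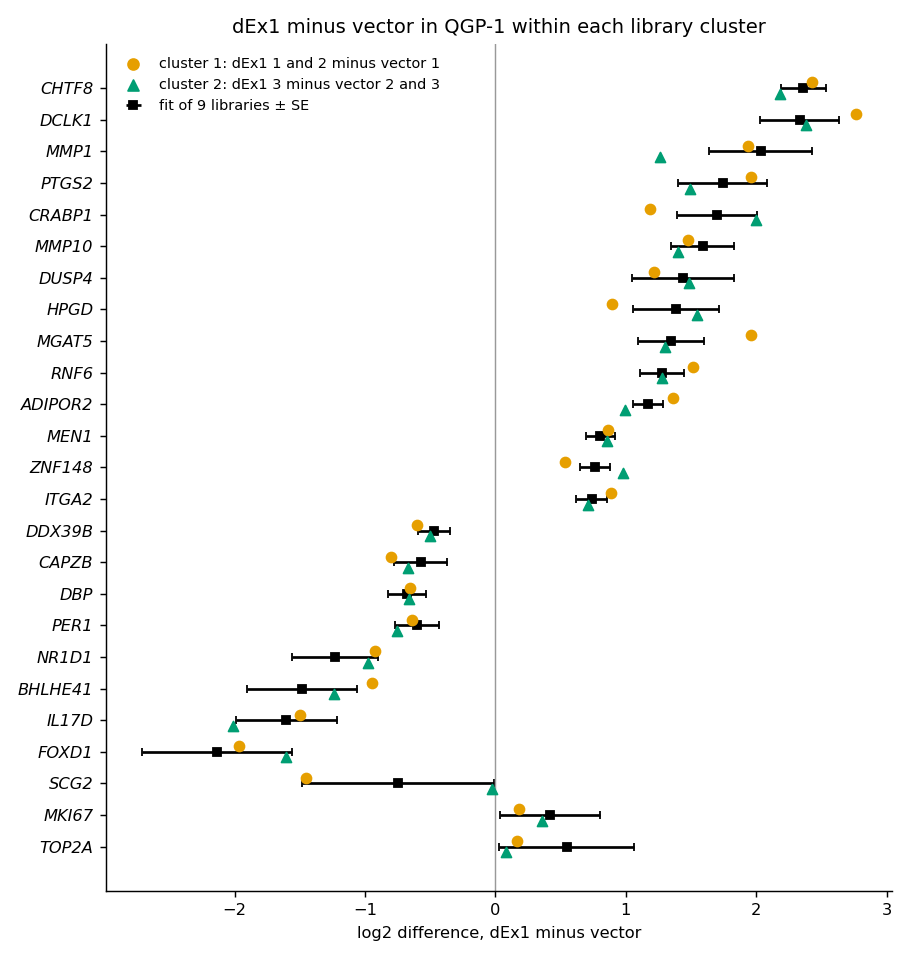
Log2 difference of dEx1 minus vector for named genes in QGP-1, with the fit of 9 libraries and its SE (black), the difference within cluster 1 (orange) and the difference within cluster 2 (green). CHTF8, DCLK1, RNF6, ADIPOR2 and MEN1 are positive in both clusters, and SCG2 is at -1.45 in cluster 1 and -0.03 in cluster 2.

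DCLK1, a kinase that binds microtubules, was the third gene by unadjusted p after CHTF8 and ADIPOR2 once MAML3 is set aside and low genes are left out. It was at 1.90, 3.71 and 3.33 CPM with vector, 6.97, 7.03 and 8.998 CPM with FL and 10.5, 16.3 and 18.4 CPM with dEx1. The log2 fold change was 2.33 (SE 0.30), with an adjusted p of 0.144 without a block or cluster term, 0.0332 with the replicate block, 0.00557 with the cluster term and 2.77e-10 by DESeq2. The groups did not overlap, and the FL libraries lay between vector and dEx1. Within the clusters the difference was 2.77 and 2.38.

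Several genes were at like levels with both constructs. RNF6, a ubiquitin ligase, was at 17.1, 22.7 and 23.9 CPM with vector, 42.5, 57.8 and 56.3 CPM with FL and 48.3, 49.5 and 56.5 CPM with dEx1. Its log2 fold change with dEx1 was 1.28 (SE 0.17, adjusted p = 0.1485; 0.0332 with the block and 0.0105 with the cluster term). The vector libraries stood below all 6 construct libraries. MEN1, which encodes menin, the tumour suppressor often mutated in pancreatic neuroendocrine tumours, was at 41.4, 45.0 and 47.9 CPM with vector, 76.2, 74.6 and 89.1 CPM with FL and 72.8, 77.9 and 84.0 CPM with dEx1. Its log2 fold change was 0.81 (SE 0.11, adjusted p = 0.192; 0.0579 with the block and 0.00557 with the cluster term), and it was 0.86 within cluster 1 and 0.85 within cluster 2. Vector did not overlap either construct. ZNF148, a zinc finger transcription factor, was at 30.7, 26.1 and 25.1 CPM with vector and 45.7, 43.3 and 50.4 CPM with dEx1 (log2 fold change 0.77, SE 0.12, adjusted p = 0.245). ITGA2, a collagen-binding integrin chain, was at 9.99, 11.8 and 12.3 CPM with vector and 18.6, 18.4 and 19.6 CPM with dEx1 (log2 fold change 0.74, SE 0.12, adjusted p = 0.289). The dEx1 minus FL differences of RNF6, MEN1, ZNF148 and ITGA2 were -0.02, -0.03, 0.00 and 0.02, with SE of 0.17, 0.11, 0.11 and 0.12. dEx1 and FL were compared with the same vector libraries, so their 2 differences from vector are not independent of each other. DESeq2 called RNF6, MEN1, ZNF148 and ITGA2 with dEx1 against vector, at adjusted p of 2.82e-05 or less.

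The secreted collagenase MMP1 and stromelysin MMP10 were far higher with FL than with dEx1. MMP10 was at 12.01, 9.81 and 9.14 CPM with vector, 128.2, 212.7 and 181.4 CPM with FL and 27.3, 40.8 and 25.01 CPM with dEx1. Its level was lower with dEx1 than with FL by a log2 difference of -2.49 (SE 0.25, adjusted p = 0.0412), and the dEx1 excess over vector of 1.59 (SE 0.24) had an adjusted p of 0.259 by edgeR and 4.32e-06 by DESeq2. The 3 groups did not overlap. MMP1 was at 4.004, 2.70 and 2.54 CPM with vector, 110.3, 182.0 and 134.7 CPM with FL and 12.5, 19.0 and 6.32 CPM with dEx1. Its difference from FL was -3.50 (SE 0.41, adjusted p = 0.0554) and from vector 2.03 (SE 0.39, adjusted p = 0.613 by edgeR and 0.000288 by DESeq2), again with separate groups. For dEx1 against FL, 2 genes were called of 14522 (0.0138%), CHTF8 higher and MMP10 lower, and 186 (1.28%) were at an unadjusted p under 0.05. Neither gene passed in the fit with the replicate block (adjusted p = 0.0945 for both). With any library left out except vector 1, neither passed, with adjusted p of 0.0750 to 0.156 for CHTF8 and 0.0787 to 0.195 for MMP10. KLHL41, a muscle Kelch protein, was at 4.40, 5.16 and 4.93 CPM with FL and 1.08, 0.71 and 0.92 CPM with dEx1 (log2 difference -2.42, adjusted p = 0.0511).

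The other named genes that lay higher with dEx1 did not pass edgeR's test without the cluster term. DESeq2 called CRABP1 (adjusted p = 0.000288), PTGS2 (0.000507), MGAT5 (0.000744), SCNN1A (0.00555) and HPGD (0.0323) but not DUSP4 (0.0721). CRABP1, which carries retinoic acid in the cytoplasm, was at 2.52, 1.05 and 1.56 CPM with vector, 2.87, 2.95 and 2.23 CPM with FL and 5.63, 5.85 and 5.17 CPM with dEx1 (log2 fold change 1.70, SE 0.31, adjusted p = 0.581). MGAT5, a Golgi enzyme that branches N-glycans, was at 36.8, 67.3 and 79.1 CPM with vector, 54.8, 50.4 and 51.1 CPM with FL and 132.9, 153.6 and 179.3 CPM with dEx1 (1.35, SE 0.25, adjusted p = 0.613). PTGS2, the inducible cyclooxygenase, was at 7.16, 8.79 and 8.12 CPM with vector, 34.04, 87.5 and 41.3 CPM with FL and 23.5, 33.2 and 23.9 CPM with dEx1 (1.74, SE 0.34, adjusted p = 0.613). For each of these the dEx1 libraries were all above the vector libraries, which the ranking required of CRABP1 and MGAT5. For CRABP1 and MGAT5 the dEx1 libraries were above the FL libraries too. DUSP4, a phosphatase that switches off MAP kinases, was at 119.95, 89.1 and 89.5 CPM with vector and 251.4, 309.2 and 249.98 CPM with dEx1 (1.44, SE 0.39, adjusted p = 1). HPGD, the prostaglandin-degrading dehydrogenase, was at 7.02, 3.33 and 3.43 CPM with vector and 12.6, 13.6 and 9.88 CPM with dEx1 (1.38, SE 0.33, adjusted p = 0.869, and 0.0406 with the cluster term). SCNN1A, a chain of the epithelial sodium channel, was at 226.5, 210.3 and 206.6 CPM with vector, 189.1, 179.5 and 180.4 CPM with FL and 310.4, 336.2 and 272.7 CPM with dEx1 (0.51, SE 0.10, adjusted p = 0.613). SCNN1A was thus higher in dEx1 than in both other groups without overlap.

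NR1D1, PER1 and DBP, genes of the circadian clock, lay lower with dEx1. NR1D1, a nuclear receptor that represses clock genes, was at 97.5, 182.6 and 178.8 CPM with vector, 46.6, 52.05 and 72.6 CPM with FL and 45.6, 58.2 and 91.7 CPM with dEx1. Its log2 fold change was -1.23 (SE 0.33, adjusted p = 1 without and 0.0406 with the cluster term), and it was -0.92 and -0.98 within the clusters. The groups did not overlap, although dEx1 3 was close to vector 1. PER1, a repressor of the clock's activating pair, was at 26.6, 23.8 and 21.9 CPM with vector and 16.5, 17.5 and 13.5 CPM with dEx1 (log2 fold change -0.60, SE 0.17, adjusted p = 1, and 0.0455 with the cluster term). DBP, a clock output transcription factor, was at 13.1, 14.8 and 12.4 CPM with vector and 8.26, 8.38 and 8.54 CPM with dEx1 (-0.68, SE 0.15, adjusted p = 0.766 by edgeR and 0.011 by DESeq2). FL libraries were also below vector for these 3 genes.

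The remaining genes at the head of the lower ranking did not pass edgeR's test without the cluster term. FOXD1, a forkhead transcription factor, was at 10.5, 6.66 and 25.4 CPM with vector, 7.81, 22.05 and 23.9 CPM with FL and 3.18, 2.25 and 4.26 CPM with dEx1 (log2 fold change -2.14, SE 0.58). BTBD9, a BTB domain protein, was at 47.1, 57.7 and 64.6 CPM with vector, 22, 30.5 and 67.0 CPM with FL and 23.3, 23.7 and 14.5 CPM with dEx1 (-1.46, SE 0.39). IL17D, a cytokine of the interleukin 17 family, was at 7.73, 9.24 and 9.54 CPM with vector, 6.62, 7.83 and 9.40 CPM with FL and 4.92, 1.51 and 2.31 CPM with dEx1 (-1.60, SE 0.39). In FOXD1 and IL17D the dEx1 libraries were below all FL libraries as well. BMF, a cell death protein of the BCL2 family, was at 20.3, 23.05 and 23.9 CPM with vector and 13.2, 14.9 and 14.9 CPM with dEx1 (-0.64, SE 0.16). The adjusted p of FOXD1, BTBD9, IL17D and BMF was 0.892 or above by edgeR, while DESeq2 called IL17D (0.0205) and FOXD1 (0.0302) but not BTBD9 (0.0643) or BMF (0.0690). ESPNP, CCT6P3 and WASH7P, also in this ranking, are pseudogenes with near copies, so their counts are uncertain. DDX39B, an RNA helicase of mRNA export, was at 347.7, 288.0 and 279.3 CPM with vector and 232.6, 226.8 and 199.8 CPM with dEx1 (-0.47, SE 0.12, adjusted p = 1, and 0.0105 with the cluster term). CAPZB, which caps actin filaments, was at 143.6, 90.6 and 100.9 CPM with vector and 82.5, 82.4 and 60.2 CPM with dEx1 (-0.57, SE 0.20, adjusted p = 1, and 0.0386 with the cluster term).

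In the Notch pathway no gene other than MAML3 was called for dEx1 against vector in QGP-1. Of 13 listed members of the Mastermind and RBPJ complex, 12 were tested, 1 was called (MAML3) and the median log2 fold change was 0.16, against 0.00 over all genes tested. MAML1 was at 97.7, 111 and 107 CPM with vector and 113, 130 and 110 CPM with dEx1 (0.16, SE 0.11). MAML2 was at 4.40, 2.48 and 2.28 CPM with vector and 7.63, 5.30 and 2.24 CPM with dEx1 (0.73, SE 0.54). RBPJ was at 64.4, 79.2 and 78.7 CPM with vector and 85.5, 79.5 and 84.1 CPM with dEx1 (0.16, SE 0.11). Of MAML1, MAML2 and RBPJ, RBPJ alone had separate groups, by a margin within 1 CPM. Among the 12 tested, all dEx1 libraries were above all vector libraries in 3, against 5.10% of all genes. They were MAML3, which was transfected and so separated by design, RBPJ and NCOR1. The list's median was 0.48 within cluster 1 and -0.01 within cluster 2. RBPJ was at 0.36 and 0.09 and NCOR1 at 0.52 and 0.06 within clusters 1 and 2. NCOR1 was at 197.1, 254.2 and 240.3 CPM with vector and 281.4, 281.9 and 257.1 CPM with dEx1 (0.25, SE 0.12). Of the 19 receptors, ligands and processing genes listed, 17 were tested and none was called, with a median of -0.04. NOTCH2, a receptor, was at 6.97, 3.88 and 3.80 CPM with vector and 8.50, 8.73 and 6.07 CPM with dEx1 (0.67, SE 0.31, unadjusted p = 0.059). Of 16 target genes of Notch, 15 were tested, none was called, none was at an unadjusted p under 0.05 and the median was -0.04. HES1, the classical target and a transcriptional repressor, was at 66.0, 49.5 and 53.9 CPM with vector and 55.0, 58.1 and 49.8 CPM with dEx1 (-0.06, SE 0.13). HEY1, another repressor of the pathway, was at 10.5, 16.4 and 17.6 CPM with vector and 8.93, 10.3 and 12.1 CPM with dEx1 (-0.51, SE 0.24, unadjusted p = 0.065). Both target genes overlapped between groups.

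Apart from the clock genes described last, edgeR called no member of the other lists, with or without the replicate block or cluster term. DESeq2 called 4 members of these lists, CRABP1, MMP1, MMP10 and CTSB. Of 19 tested genes of the list of metalloproteases, the urokinase system and inhibitors, 5 were at an unadjusted p under 0.05 and all 5 were higher with dEx1 (MMP1, MMP10, MMP7, CTSB and ADAMTS1), against 2.23% higher over all genes, and the list's median was -0.06. CTSB, a lysosomal cysteine protease, was at 42.8, 50.1 and 52.1 CPM with vector and 62.0, 74.1 and 70.4 CPM with dEx1 (0.51, SE 0.12, adjusted p = 0.869 by edgeR and 0.0496 by DESeq2). MMP7 and ADAMTS1 were below 1 CPM in all 6 libraries, and MMP2, TIMP1, TIMP2, PLAU and PLAUR overlapped between groups. All 21 tested members of the cell cycle list had a positive log2 fold change, with a median of 0.29, but the median was -0.03 with the cluster term and 0.00 and -0.03 within the clusters. The granin and prohormone list had a median of -0.21 over 13 genes without the cluster term and 0.03 with it. The ATF4 and ER stress list, also of 13 tested genes, had a median of -0.30 without the cluster term and -0.09 with it. Its median with FL against vector was -0.32. Of 16 ribosomal protein genes none was at an unadjusted p under 0.05, with a median of -0.05. TH, the enzyme that starts catecholamine synthesis and a neuroblastoma marker, was at 0 in the vector libraries and at most 0.51 CPM with dEx1 (unadjusted p = 0.015).

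Promoters of 3 genes are shown because the groups separated at CHTF8, DCLK1 and MMP10 and because they hold letters of a motif of RBPJ, of AP-1 or of the clock factors. They come from RefSeq on GRCh38.p14, from 250 bases before to 50 after the start, in the direction of the gene, with matches in capitals.
CHTF8 promoter, chr16:69132539-69132838, minus strand: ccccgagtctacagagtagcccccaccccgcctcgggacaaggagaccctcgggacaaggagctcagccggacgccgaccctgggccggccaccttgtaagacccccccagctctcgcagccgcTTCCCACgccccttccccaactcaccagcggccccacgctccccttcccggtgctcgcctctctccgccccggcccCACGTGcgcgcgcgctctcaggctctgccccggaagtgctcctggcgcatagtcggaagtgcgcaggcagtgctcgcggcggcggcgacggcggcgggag
DCLK1 promoter, chr13:36131890-36132189, minus strand: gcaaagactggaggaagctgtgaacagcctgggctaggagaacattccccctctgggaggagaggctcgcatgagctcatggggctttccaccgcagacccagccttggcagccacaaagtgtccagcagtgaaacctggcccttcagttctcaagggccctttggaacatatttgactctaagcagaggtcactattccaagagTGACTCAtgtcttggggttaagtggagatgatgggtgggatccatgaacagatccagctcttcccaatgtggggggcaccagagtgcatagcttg
MMP10 promoter, chr11:102780579-102780878, minus strand: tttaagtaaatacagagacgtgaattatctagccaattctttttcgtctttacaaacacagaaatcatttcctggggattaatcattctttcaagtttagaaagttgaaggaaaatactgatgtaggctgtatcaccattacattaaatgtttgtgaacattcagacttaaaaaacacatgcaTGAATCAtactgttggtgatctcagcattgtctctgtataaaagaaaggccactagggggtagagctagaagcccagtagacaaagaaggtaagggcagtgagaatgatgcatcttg
Both strands were searched. The motif of RBPJ (GTGGGAA) was in 6.23% of 34796 promoters, that of AP-1 (TGANTCA) in 7.73% and the E-box (CACGTG) in 7.2%. CHTF8 holds the letters of RBPJ on its other strand from base -126 and an E-box from base -50, which do not overlap. DCLK1 holds an AP-1 match from base -45 and MMP10 from base -67. Of the 10 genes that head the higher ranking, 9 had a promoter in the table, and AP-1 letters were in CRABP1, DCLK1 and MMP10, RBPJ letters in CHTF8 alone and the E-box in CHTF8 alone. Of the 10 that head the lower ranking, 7 had a promoter, and the E-box in PER1 was the only match. These matches are descriptions of the letters.

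The dEx1 effect in QGP-1 was set against the dEx1 effect in the other lines by a test of the difference between them. On its own, dEx1 against vector called 2 of 14903 genes in BON-1 (0.0134%) and 656 of 14674 in SK-N-SH (4.47%). For QGP-1 against BON-1, edgeR called none of 16883 genes (0%), with 660 (3.91%) at an unadjusted p under 0.05. edgeR called 6 with the replicate block and 2 with the compared libraries alone, and DESeq2 called 37. For QGP-1 against SK-N-SH it called 88 (0.521%), 81 with the more positive effect in QGP-1 (0.480%) and 7 with the more negative (0.0415%). The split was 412 and 225 with the replicate block, 306 and 108 by DESeq2 and 242 and 151 (393 in all) without SK-N-SH vector library 3. Of those 88, 87 were tested in the fit of SK-N-SH on its own, where 71 were called. In the fit of QGP-1 on its own 1 was called, the transfected MAML3, which was called in SK-N-SH too. The MAML3 effect itself was smaller in QGP-1 than in SK-N-SH by a log2 difference of -2.77 (adjusted p = 0.0452), with SK-N-SH effect 8.74 (SE 0.55). Mean MAML3 was 21.2 CPM with vector and 9084 CPM with dEx1 in SK-N-SH, against 73.4 and 4622 CPM in QGP-1. The lower vector level in SK-N-SH thus enters the log2 difference as well as the dEx1 level.

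MMP1, MMP10 and RBPJ were among the 88. The effect of dEx1 on RBPJ was -0.64 (SE 0.10, adjusted p = 0.0145) in SK-N-SH and 0.16 (SE 0.11) in QGP-1. The difference between these lines was 0.80 (adjusted p = 0.0452 by edgeR's test). The effect of dEx1 on MMP1 was -1.76 (SE 0.33, adjusted p = 0.0236) in SK-N-SH, from 74.1 ± 31.9 to 21.9 ± 3.84 CPM (SD, n = 3), and 2.03 (SE 0.39) in QGP-1. The difference between the lines was 3.78 (adjusted p = 0.00588). The effect on MMP10 was -1.14 (SE 0.27, adjusted p = 0.0501) in SK-N-SH and 1.59 in QGP-1, a difference of 2.73 (adjusted p = 0.00967). In BON-1 the effects on MMP1 and MMP10 were -0.07 (SE 0.43) and -0.12 (SE 0.40), and the differences from QGP-1 did not pass (adjusted p = 0.836 and 0.823). The CHTF8 effect was 0.41 (SE 0.70) in BON-1 and -0.83 (SE 0.55) in SK-N-SH, and its differences from QGP-1 of 1.95 and 3.19 did not pass (adjusted p = 1 and 0.112). For ADIPOR2 the effects were 0.23 (SE 0.32) and 0.55 (SE 0.35), with differences of 0.92 and 0.62 (adjusted p = 1 and 0.727). MEN1 had effects of 0.13 (SE 0.31) in BON-1 and 0.44 (SE 0.23) in SK-N-SH, and neither difference passed (adjusted p = 1 and 0.884).

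**Figure D5:**
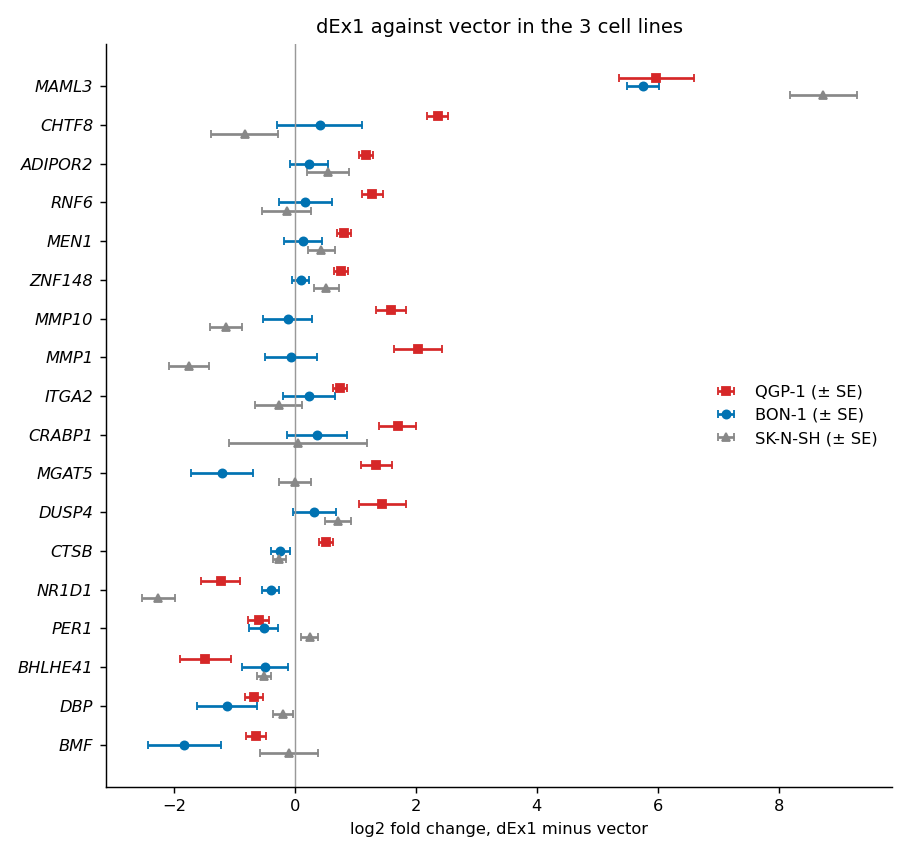
Log2 fold change of dEx1 against vector with its SE for 18 genes in QGP-1 (red squares), BON-1 (blue circles) and SK-N-SH (grey triangles), from the fit of each line on its own. MMP1 and MMP10 are above 0 in QGP-1 and below 0 in SK-N-SH, and the SE of CHTF8 is wider in BON-1 and SK-N-SH than in QGP-1.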

How the data were processed

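The deposited table holds an estimated count per gene and library, which the authors made by trimming with Trimmomatic, aligning to hg19 with HISAT2 and estimating abundance with StringTie, per the labels' protocols and the submitters' processing notes. Versions, the gene annotation, the strand of counting and the step from abundances to counts are not given in the sources used here. All values are whole numbers, so rounding changed none. Low values heap at 5 (2321 values in QGP-1, against 1384 at 4 and 816 at 6), so what 1 fragment is worth is unknown. Of 23234 genes listed, 4 symbols had a second identical line, which left 23230.

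The 9 QGP-1 libraries were fitted together with edgeR 4.0.16 in R 4.3.3 (filterByExpr, TMM scaling, quasi-likelihood F test, Benjamini-Hochberg adjustment, threshold 0.05), so that the groups share an estimate of spread. Levels are CPM after this scaling, and within-cluster differences are of log2 CPM with a prior count of 2. Differences between lines came from 1 fit of 27 libraries. The code was tested on simulated data. Annotation was GENCODE v44 on GRCh37, the hg19 build.

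Genes named are, per direction, up to 10 past the threshold with separate groups and a mean of at least 2 CPM, filled to 10 by unadjusted p with at least a 1.5-fold difference; the 10 first with the replicate block, up to 4 per list by p, and up to 5 per direction for FL and between lines, with MAML3, uncharacterised loci and small RNAs left out. Genes called with the cluster term, MAML1, MAML2, HES1, UTP4, ADIPOR1, ADAMTS1, SCG2, INSM1, SST and genes only listed as overlapping were named outside this rule, after their values were seen. The comparison, the members and the 30 lists (434 entries, 386 matched) were chosen with earlier results of these data known. Replicates were labelled biological, and p-values measure the spread between these libraries. Alternatives were another filter, DESeq2 1.42.0 size factors or tests, the replicate block, fewer or more libraries, the cluster term and each QGP-1 library left out, and for differences between lines also each vector or dEx1 library of the other lines. The lists of histone and mitochondrially encoded genes had no tested member. Figures used matplotlib 3.10.9.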

Additional observations from a re-analysis of the deposited data

Results flagged for a closer look

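The effect of dEx1 differed between QGP-1 and SK-N-SH by a test of the difference itself, edgeR's quasi-likelihood test over 27 libraries, in 88 genes. The named genes below passed that test, and on the log2 scale their levels moved in SK-N-SH more than in QGP-1. DSP, a desmosome protein, had a difference of 7.12, and its mean was 324 CPM with vector and 398 CPM with dEx1 in QGP-1. In SK-N-SH its mean was 1.87 CPM with vector (SD 1.05) and 0.0143 CPM with dEx1 (SD 0.0248). The size of this difference thus rests on near-zero values in SK-N-SH dEx1. BTC, an EGF family growth factor, had a fitted difference of 9.04 that depends on the prior count, since it was at 0 CPM in SK-N-SH dEx1 and 0.581 CPM in SK-N-SH vector. NBN, a DNA repair protein, differed by 1.26, CADPS2, a protein of vesicle release, by 2.04, and MLKL, the effector of necroptosis, by 1.67. MLKL went from 6.42 to 6.46 CPM in QGP-1 and from 62.5 to 19.8 CPM in SK-N-SH.

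In the other direction FAM117A differed by -1.38, LMAN2L, a cargo receptor of the secretory pathway, by -1.03 and KIAA1324 by -1.68. BAD, a cell death protein, differed by -0.75 and NAXE, a metabolite repair enzyme, by -0.80. FAM117A went from 13.3 to 12.98 CPM in QGP-1 and from 6.07 to 15.5 CPM in SK-N-SH. KIAA1324 went from 356 to 332 CPM in QGP-1 and from 0.852 to 2.54 CPM in SK-N-SH. Groups of 3 libraries are too small for a test of a single library standing apart.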

How the results depend on the processing

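For dEx1 against vector 3 genes were called, and DESeq2 called 53, the 6 compared libraries alone 1 and the cluster term 11. Leaving out 1 QGP-1 library gave 0 to 3, with 0 without vector 1, vector 3, dEx1 1 or dEx1 2 and 1 without FL 2, FL 3 or dEx1 3. For dEx1 against FL 2 were called, and no filter gave 5, DESeq2 size factors 4, DESeq2 19, the compared libraries alone 0 and the cluster term 7. Leaving out 1 QGP-1 library gave 0 to 7, with 7 without vector 1 and 0 otherwise. Against BON-1 none was called, DESeq2 gave 37, the compared libraries alone 2 and leaving out 1 library 0 to 5 (5 without BON-1 vector 2, 4 without QGP-1 FL 1, 1 without QGP-1 vector 1 or 2, BON-1 dEx1 2 or SK-N-SH dEx1 3). Against SK-N-SH 88 were called, DESeq2 gave 414, the compared libraries alone 40, the cluster term 154 and leaving out 1 library 44 to 393 (44, 48 and 393 without SK-N-SH vector 1, 2 and 3, 55 without SK-N-SH dEx1 3, 52 without QGP-1 vector 2, 57 without QGP-1 dEx1 2). MAML3 with the compared libraries alone was 5.98 (adjusted p = 0.0652), and 5.69 to 6.27 with 1 QGP-1 library left out. The cause of these moves was not tested. Counts divided by 5, which gave 5 genes for dEx1 against FL, MAML3 left out of the scaling and leaving out libraries of the other lines were added after the data were seen. None of the genes whose values were recomputed under every alternative reversed. The other named genes were not all recomputed, and with the cluster term NR1D2 went from -0.08 to 0.08 and PER2 from 0.05 to -0.20. No setting moved the median of all genes by over 0.1.

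The replicate block gave 3 genes against vector, 0 against FL, 6 against BON-1 and 637 against SK-N-SH, and put MAML3 at 5.84 (adjusted p = 0.0520). Deviations of same-numbered vector and dEx1 libraries correlated at 0.41, -0.17 and 0.38 across genes for numbers 1, 2 and 3. Libraries 1 and 3 of both groups correlated best with their own number, and dEx1 library 2 and vector library 2 did not. Vector 1 and dEx1 1 share cluster 1, and vector 3 and dEx1 3 share cluster 2. For numbers 1 and 3 a shared replicate and a shared cluster therefore cannot be told apart. Vector 2 is in cluster 2 and dEx1 2 in cluster 1. Vector 1 and dEx1 2, both in cluster 1, correlated at 0.25, and vector 2 and dEx1 3, both in cluster 2, at 0.36. Vector and dEx1 libraries of different clusters correlated at -0.53 to -0.17. What 1 count is worth in fragments is unknown, which limits what can be said of genes at low levels.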

Other observations

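INSM1, a zinc finger factor of neuroendocrine cells, stood at separate levels among libraries of 1 group in QGP-1, as CHTF8 did in the other lines. It was at 208.2, 53.7 and 313.4 CPM with vector, 209.2, 201.3 and 50.2 CPM with FL and 223.0, 42.2 and 316.7 CPM with dEx1. The low libraries, vector 2, FL 3 and dEx1 2, were in both library clusters. The log2 fold change of dEx1 against vector was 0.02 (SE 0.84). The somatostatin gene SST followed the clusters, with 1607 CPM in vector 1, 1282 and 1102 CPM in dEx1 1 and 2, 1165 and 959 CPM in FL 1 and 2, and 349.5 to 397.0 CPM in the 4 libraries of cluster 2.

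A list of 18 clock genes, chosen after the values of NR1D1, PER1 and DBP were seen, had a median log2 fold change of -0.11 for dEx1 against vector. Without the cluster term edgeR called none, and 5 were lower at an unadjusted p under 0.05 (1.40% of all genes tested). In 6, all dEx1 libraries were below all vector libraries (3.95% of all genes tested). Both counts include NR1D1, PER1 and DBP, whose values led to the list, so setting them against these shares is not a test. The other genes lower at that p were CIART and BHLHE41. DESeq2 gave DBP an adjusted p of 0.011, and edgeR with the cluster term gave NR1D1 0.0406 and PER1 0.0455. CIART, a repressor of the clock, was at 28.1, 30.2 and 26.5 CPM with vector and 17.9, 23.9 and 19.2 CPM with dEx1 (-0.47, SE 0.14). BHLHE41, another repressor, was at 8.27, 19.98 and 19.2 CPM with vector and 3.73, 4.92 and 8.32 CPM with dEx1, and its groups overlapped. CLOCK was the 1 gene of the list with all dEx1 libraries above vector (39.9, 61.7 and 65.7 CPM against 79.2, 71.4 and 68.1 CPM). CRY1, CRY2, PER2, PER3 and NR1D2 had overlapping groups.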
